A study of Mus musculus with 9 samples.

Results

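The LXR and PPAR lipid-handling genes were 10 genes chosen by symbol from the 55401 genes listed in the expression table: the receptor genes Nr1h2, Nr1h3 and Pparg, the cholesterol efflux genes Abca1, Abcg1 and Apoe, the receptor-degrading ligase gene Mylip, and the lipid uptake and storage genes Lpl, Fabp4 and Plin2. All 10 symbols were found, and 9 of the 10 (all but Pparg) had a mean TPM (a gene's transcripts as a share of all transcripts, scaled to a fixed total) of at least 1 over the 9 columns and were tested. RNA came from RAW264.7 cells, a mouse macrophage line derived from a tumour of a male mouse induced by Abelson murine leukemia virus and labelled WT. The labels give 24 h of treatment with DMSO (vehicle), DMSO+LPS (LPS below; lipopolysaccharide, a bacterial cell wall component that activates macrophages) or LPS+Skatole (LPS + Ska; skatole is an indole made by gut bacteria), with 3 columns per group numbered 5, 6 and 7, while the methods section of the study gives a longer treatment. The labels give no dose of LPS or skatole, do not name DMSO in the LPS + Ska group, and do not say whether the samples of a group came from separate cultures, so the p-values measure the spread between these samples, which may be technical.

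The liver X receptors, LXRα (Nr1h3) and LXRβ (Nr1h2), are nuclear receptors that sense oxysterols. As partners of the retinoid X receptor they bind DNA and switch on genes that move cholesterol out of the macrophage (Abca1, Abcg1, Apoe) and that limit its uptake (Mylip, which marks lipoprotein receptors for degradation). The peroxisome proliferator-activated receptors, among them PPARγ (Pparg), sense fatty acids and raise genes of lipid uptake, transport and storage, such as Fabp4, Plin2 and Lpl.

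Replicate values were tied in LPS and in LPS + Ska. There, replicate 5 equalled the mean of replicates 6 and 7 within 1e-05 TPM, in 17950 of 17950 genes for LPS and in 17658 of 17658 for LPS + Ska, counting genes above 0 in the other columns, against 10 of 16674 genes in DMSO. Both groups thus carry no more than 2 independent values for a gene. These were recovered on the assumption that replicates 6 and 7 lie at replicate 5 plus and minus the whole distance between the 2 values. Where neither is at 0, an SD over the 3 columns then equals that distance. In 4042 further genes of LPS and 4047 of LPS + Ska, replicate 6 or 7 was at 0. There the other exceeded replicate 5 by 1 to 2.002 times its value in LPS and 1 to 2 times in LPS + Ska. Were replicate 5 the plain mean of 2 measured columns, this would be 1 throughout. The LPS and LPS + Ska values below, and their n of 3 columns, should be read with the limit of 2 values. Each call was repeated on the recovered values, which rest on that assumption. Columns summed to between 999895 and 1000145 TPM and held 12498 to 13012 genes at 1 TPM or more. The depth of sequencing is unknown, since TPM does not keep it. All 7 macrophage markers (Adgre1, Csf1r, Cd68, Lyz2, Itgam, Spi1, Fcgr1) were above 1 TPM in every column, whereas 4 of 6 adipocyte, 1 of 4 fibroblast and 3 of 4 lymphocyte markers were listed at 0 in every column, and none of these exceeded 0.672 TPM. The summed macrophage markers ranged from 11033 to 11973 TPM in DMSO, 5788 to 6113 in LPS and 11383 to 11594 in LPS + Ska, a sum that Lyz2 dominates (log2 difference -1.05 for LPS against DMSO and 1.19 for LPS + Ska against LPS). Not all of the other markers followed it. Csf1r (-0.67) and Spi1 (-0.81) were also called lower in LPS than in DMSO, and both remained at -0.83 against DMSO in LPS + Ska. Between LPS + Ska and LPS, 5 of the 7 markers had a difference below 0, where the median over all genes was -0.10. Fcgr1 (-0.59) was called lower, a call kept in 16 of 19 alternative settings, and Lyz2 was called higher. Of all genes tested, 6.14% were called lower and 3.35% higher. Itgam (0.39) was higher but not called. The part of these shifts in the results below was not tested.

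Promoter sequence was taken from RefSeq (GRCm38.p6) as the 250 bases before a transcript start, and 7 of the 10 genes were found there (not Abcg1, Fabp4 and Lpl), with 12 windows. Both strands were searched for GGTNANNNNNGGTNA, a direct repeat with the spacing LXR is known to bind, for GGTNANNGGTNA, a direct repeat with the spacing of PPAR sites, and for the single element AGGTCA, whose letters can overlap those of the repeats. The letters of the repeats were set with the Abca1 promoter in view. The first was found in 0.621%, the second in 0.938% and the third in 14.0% of all 32851 windows. Among the 12 windows, the first was found only in Abca1, 67 to 53 bases before the start, the second in none, and the single element in 3 (1 of Plin2 and 2 of Pparg). Such a match describes the letters and is not a binding site. A link between matches and changes in level was not tested. The 3 windows shown, 5′ to 3′ on the strand of the gene and with matches in capitals, are Abca1 (chr4:53159896-53160145, minus strand), the member with the repeat, Mylip (chr13:45389492-45389741, plus strand), an LXR target with none of the matches, as were Apoe, Nr1h2 and Nr1h3, and Plin2 (chr4:86670060-86670309, minus strand), the member with the largest difference between LPS + Ska and LPS.
Abca1: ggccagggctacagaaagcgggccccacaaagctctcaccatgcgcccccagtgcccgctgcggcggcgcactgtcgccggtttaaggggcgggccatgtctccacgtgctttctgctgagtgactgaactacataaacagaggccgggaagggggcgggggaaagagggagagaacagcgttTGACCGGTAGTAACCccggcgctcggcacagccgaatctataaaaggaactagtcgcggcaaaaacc
Mylip: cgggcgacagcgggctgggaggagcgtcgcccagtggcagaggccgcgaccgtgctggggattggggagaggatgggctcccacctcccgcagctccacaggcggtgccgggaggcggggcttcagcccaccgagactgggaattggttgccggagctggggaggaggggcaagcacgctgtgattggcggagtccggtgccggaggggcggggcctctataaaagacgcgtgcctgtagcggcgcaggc
Plin2: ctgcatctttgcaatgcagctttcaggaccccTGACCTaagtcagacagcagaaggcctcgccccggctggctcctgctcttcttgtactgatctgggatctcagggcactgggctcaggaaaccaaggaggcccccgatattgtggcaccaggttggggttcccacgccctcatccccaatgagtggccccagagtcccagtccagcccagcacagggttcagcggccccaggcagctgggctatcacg

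LPS lowered most of these genes. Compared with DMSO, 6 of the 9 tested genes were called lower (Nr1h2, Nr1h3, Abcg1, Apoe, Mylip, Lpl) and 2 were called higher (Abca1, Fabp4), while Plin2 was lower by less than the fold limit. A call needed a Benjamini-Hochberg adjusted p below 0.05 over the 12819 genes tested and a fold change above 1.5 or below 0.67 on the log2(TPM + 1) scale, in limma. Of all genes tested, 20.0% were called lower and 12.7% higher. The median log2 difference was -0.92 over the 9 genes and -0.07 over all genes. Fabp4 passed the filter on low values only through the LPS and LPS + Ska groups, so that it had to differ from DMSO. In bulk RNA, fewer cells expressing a gene and less of its RNA per cell cannot be told apart.

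**Figure D1:**
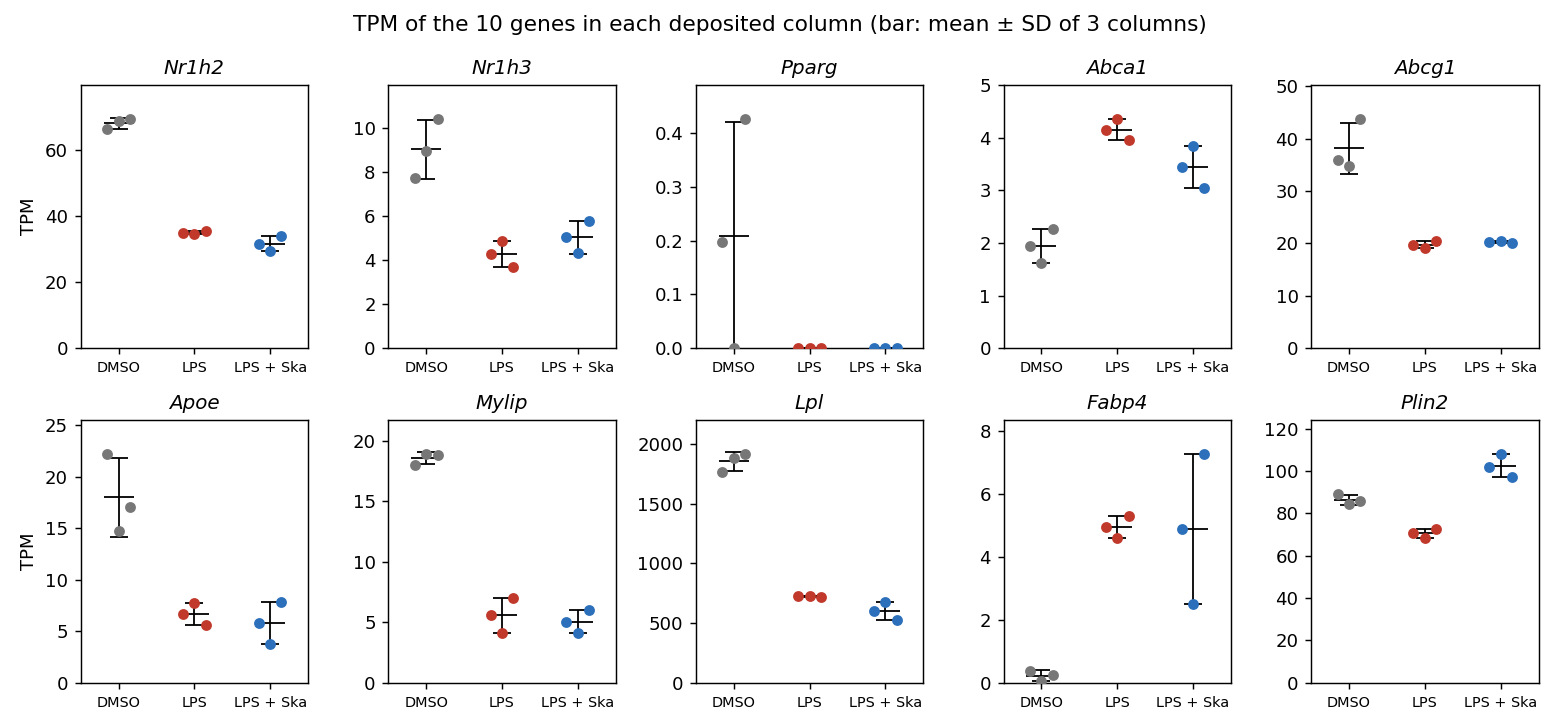
TPM of the 10 genes in each column (points; the vertical axis is TPM from 0, with its own scale for each gene) and the group mean with its SD (bar and whiskers) in DMSO, LPS and LPS + Ska. Lpl falls from a mean of 1852 to 723 TPM after LPS, Abca1 and Fabp4 lie higher after LPS, and Plin2 is the gene whose LPS + Ska columns stand above both other groups.

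Among the receptors, Nr1h2 was the main LXR gene of these cells in every group. Nr1h2 (chr7:44549616-44553951, minus strand) had 66.2, 68.9 and 69.3 TPM in DMSO, 35.0, 34.5 and 35.4 in LPS, and 31.6, 29.4 and 33.9 in LPS + Ska (replicates 5, 6 and 7 in turn, here and below). The DMSO columns lay above both LPS groups, and all LPS + Ska columns lay below those of LPS by a small step. The mean was 68.1 ± 1.67 TPM (SD, n = 3) in DMSO and 35.0 ± 0.439 (SD, n = 3) in LPS, a log2 difference of -0.94 (SE 0.06, adjusted p = 2.8e-06). Nr1h3 (chr2:91184061-91202834, minus strand), the LXRα gene, was much lower, with 7.72, 8.96 and 10.4 TPM in DMSO, 4.29, 4.88 and 3.70 in LPS, and 5.03, 4.30 and 5.77 in LPS + Ska. Its DMSO columns lay above all others, and the LPS and LPS + Ska columns overlapped. The log2 difference between LPS and DMSO was -0.92 (SE 0.15, adjusted p = 4.8e-04). The ratio of Nr1h2 to Nr1h3 TPM, which is per transcript length, ranged from 6.65 to 8.58 over the columns of DMSO, 7.08 to 9.57 in LPS and 5.87 to 6.84 in LPS + Ska. The LPS columns overlapped those of DMSO in this ratio, whereas the LPS + Ska columns lay below those of LPS, a difference that was not tested.

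Pparg (chr6:115360951-115490399, plus strand) was close to absent. It was listed at 0.198, 0 and 0.426 TPM in DMSO and at 0 in every LPS and LPS + Ska column. It was not tested, no fold is given, and the depth behind a value of 0 is unknown.

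The cholesterol efflux genes did not move together. Abca1 (chr4:53030787-53159895, minus strand), the transporter that loads cholesterol onto apolipoprotein A-I, had 1.94, 1.62 and 2.27 TPM in DMSO, 4.15, 4.35 and 3.95 in LPS, and 3.44, 3.85 and 3.04 in LPS + Ska. No column of one group reached those of another. LPS raised Abca1 from 1.95 ± 0.326 to 4.15 ± 0.20 TPM (SD, n = 3 each), a log2 difference of 0.81 (SE 0.13, adjusted p = 5.7e-04). Abcg1 (chr17:31057675-31117988, plus strand), which exports cholesterol to high-density lipoprotein, had 35.9, 34.8 and 43.7 TPM in DMSO, 19.7, 19.1 and 20.4 in LPS, and 20.2, 20.4 and 20.0 in LPS + Ska. All DMSO columns were above the others, and the LPS and LPS + Ska columns overlapped. Its log2 difference between LPS and DMSO was -0.91 (SE 0.09, adjusted p = 2.5e-05). Abcg1 was thus the more abundant transporter per transcript length in every column, by 18.5 to 21.4 times in DMSO, 4.38 to 5.15 times in LPS and 5.29 to 6.58 times in LPS + Ska.

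Apoe (chr7:19696109-19699188, minus strand), the apolipoprotein that macrophages secrete as a cholesterol acceptor, had 22.2, 14.7 and 17.1 TPM in DMSO, 6.68, 7.72 and 5.63 in LPS, and 5.79, 3.74 and 7.84 in LPS + Ska. Every DMSO column was above every other column, with a wide spread within DMSO and within LPS + Ska. The log2 difference between LPS and DMSO was -1.30 (SE 0.23, adjusted p = 9.2e-04). Mylip (chr13:45389742-45412022, plus strand), which encodes the ubiquitin ligase IDOL, had 18.0, 18.9 and 18.8 TPM in DMSO, 5.58, 4.15 and 7.02 in LPS, and 5.06, 4.12 and 5.99 in LPS + Ska. Its DMSO columns lay within a narrow band far above the overlapping LPS and LPS + Ska columns. With a mean of 18.5 ± 0.474 TPM in DMSO and 5.58 ± 1.44 in LPS (SD, n = 3 each) and a log2 difference of -1.59 (SE 0.17, adjusted p = 4.0e-05), it had the largest fall of the 9 genes.

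Lpl was by far the most abundant of the 10 genes. Lpl (chr8:68880491-68907448, plus strand), the secreted lipase that frees fatty acids from lipoprotein triglycerides, had 1766, 1877 and 1914 TPM in DMSO, 723, 726 and 720 in LPS, and 602, 677 and 527 in LPS + Ska. The groups did not overlap and stepped down from DMSO to LPS to LPS + Ska. Its rank by mean TPM among the 12819 genes was 62 in DMSO, 162 in LPS and 214 in LPS + Ska. The log2 difference between LPS and DMSO was -1.36 (SE 0.08, adjusted p = 1.3e-06). Fabp4 (chr3:10204088-10208576, minus strand), a fatty acid carrier of adipocytes and macrophages, was near 0 in DMSO, at 0.388, 0.0613 and 0.248 TPM, and had 4.93, 4.58 and 5.28 in LPS and 4.88, 2.51 and 7.26 in LPS + Ska. All LPS and LPS + Ska columns were above those of DMSO, and the LPS + Ska columns lay on both sides of those of LPS. The log2 difference between LPS and DMSO was 2.27 (SE 0.27, adjusted p = 8.8e-05) and was 4.06 with a pseudocount of 0.1 in place of 1, so its size depends on that setting. Since the filter admitted Fabp4 only through the LPS and LPS + Ska groups, this adjusted p is no test of the difference.

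Plin2 (chr4:86648386-86670060, minus strand), the coat protein of lipid droplets, had 89.0, 84.2 and 85.7 TPM in DMSO, 70.6, 68.5 and 72.7 in LPS, and 102, 108 and 97.2 in LPS + Ska. The 3 groups did not overlap, with LPS lowest and LPS + Ska highest. LPS against DMSO gave a log2 difference of -0.29 (SE 0.06, adjusted p = 0.0019), inside the fold limit and so not a call. On the recovered values all 8 calls of LPS against DMSO held, with the largest adjusted p at 0.0031 for Abca1.

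**Figure D2:**
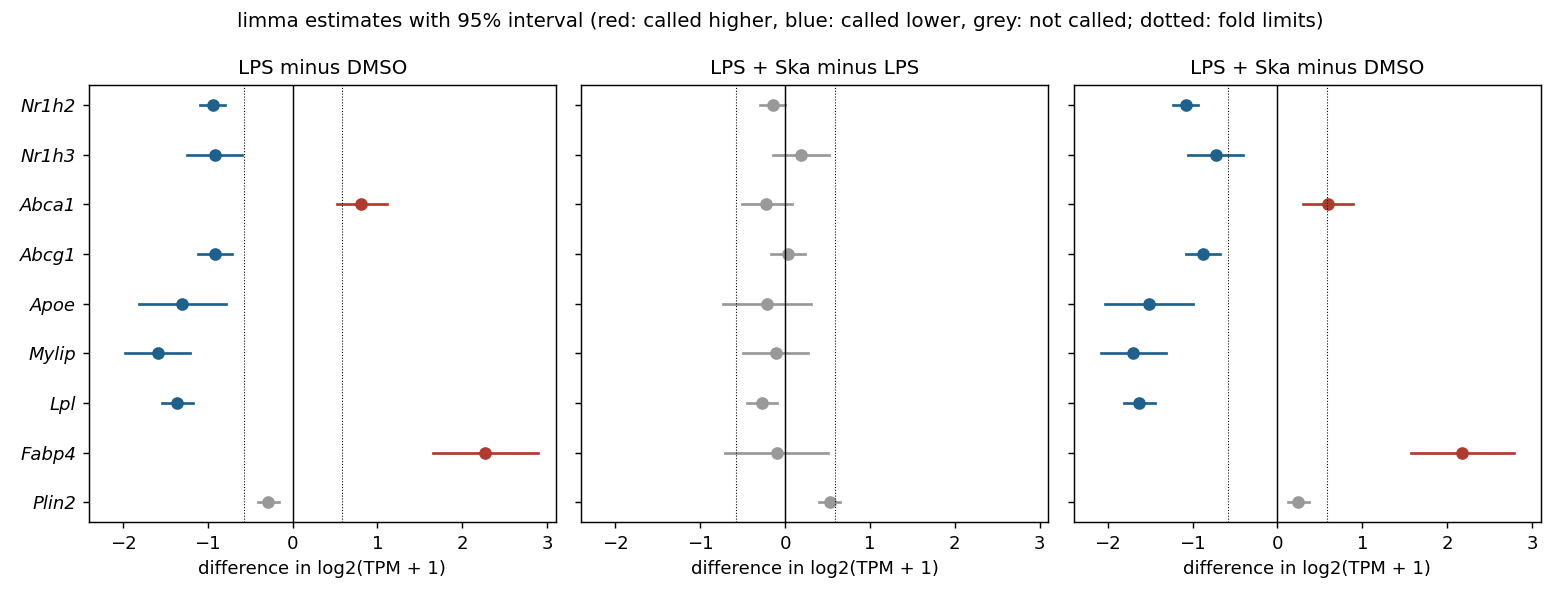
Difference in log2(TPM + 1) with its 95% confidence interval from limma for the 9 tested genes, in LPS minus DMSO, LPS + Ska minus LPS and LPS + Ska minus DMSO. In the LPS + Ska minus LPS panel the intervals of Plin2 and Lpl exclude 0 and no gene passes both limits of a call, while Fabp4 and Abca1 lie above 0 and 6 genes lie below the fold limit in LPS minus DMSO.

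No call was made among these genes for skatole added to LPS. Between LPS + Ska and LPS, limma called 0 of the 9 genes higher and 0 lower, where 3.35% of all genes were called higher and 6.14% lower. With so few genes, 0 calls are near those shares, so this count is no result about the 9 genes. Of the 9, 2 had an unadjusted p below 0.05, and the same 2, Plin2 and Lpl, had an adjusted p below 0.05. Of all 12819 genes, 1139 were higher and 2524 lower at an adjusted p below 0.05. The 2 of 9 are near that share, so this count is no result about the 9 genes as a set. No other tool was run. The median log2 difference was -0.11 over the 9 genes and -0.10 over all genes.

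Plin2 was higher in LPS + Ska than in LPS, at 102 ± 5.16 against 70.6 ± 2.10 TPM (SD, n = 3 each). The log2 difference was 0.53 (SE 0.06, 95% CI 0.40 to 0.65, adjusted p = 3.2e-04), a fold of 1.44, below the limit of 1.5. On the recovered values the adjusted p was 0.0027. Each column was also divided by its median ratio to the mean column. This moved the median of all genes in LPS + Ska against LPS from -0.10 to 4.8e-05. The Plin2 difference between LPS + Ska and LPS was then 0.63 and passed the limit. Lpl was lower, at 602 ± 75.1 against 723 ± 2.60 TPM (SD, n = 3 each), with a log2 difference of -0.27 (95% CI -0.45 to -0.09, adjusted p = 0.035, and 0.043 on the recovered values). Over the alternatives the log2 difference of Lpl ranged from -0.36 to -0.17 and its adjusted p from 0.0039 to 0.10. This difference was thus near the limit of what the columns resolve, beside a median of -0.10 over all genes. The ratio of Lpl to Plin2 TPM was 19.8 to 22.3 over the columns of DMSO, 9.90 to 10.6 in LPS and 5.42 to 6.30 in LPS + Ska, with no overlap. Between LPS + Ska and LPS this follows from the 2 genes, whose columns do not overlap and differ in opposite directions. It is no separate evidence.

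For the other 7 genes the difference between LPS + Ska and LPS was not resolved. The intervals were -0.51 to 0.08 for Abca1, -0.17 to 0.23 for Abcg1, -0.14 to 0.52 for Nr1h3 and -0.73 to 0.30 for Apoe. They were -0.71 to 0.51 for Fabp4 and -0.49 to 0.27 for Mylip. Of these 6 genes Abcg1 had the narrowest interval, and the intervals of Apoe and Fabp4 include changes as large as the fold limit. On the recovered values that of Abca1 does too, at -0.62 to 0.19. Nr1h2 had a log2 difference of -0.14 (SE 0.06, adjusted p = 0.13) although its columns did not overlap.

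Against DMSO, LPS + Ska gave the same 8 genes in the same directions as LPS did, with 2 called higher and 6 lower, where 11.4% of all genes were called higher and 25.3% lower. These comparisons share the DMSO columns, so their values are set side by side and are not separate evidence. The log2 difference of Lpl was -1.63 (adjusted p = 4.6e-07), that of Mylip -1.70 (adjusted p = 2.2e-05) and that of Apoe -1.51 (adjusted p = 3.2e-04). Nr1h2 was at -1.08 (adjusted p = 1.1e-06), Abcg1 at -0.88 (adjusted p = 2.6e-05) and Nr1h3 at -0.73 (adjusted p = 0.0017). The Nr1h3 call was lost under median-ratio scaling, at -0.57. Fabp4 was at 2.18 (adjusted p = 9.8e-05). It passed the filter on low values only through the LPS and LPS + Ska groups, so it had to differ from DMSO and its call is no test. Abca1 was at 0.60 (adjusted p = 0.0031). The Abca1 call was lost without DMSO replicate 6, at 0.51, and without LPS + Ska replicate 6, at 0.53. Plin2 was the member whose mean lay below DMSO in LPS and above it in LPS + Ska, with a log2 difference from DMSO of 0.24 (adjusted p = 0.0042), inside the fold limit.

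The wider pathway was described with 6 lists of 63 other genes, of which 43 were tested and 20 were not, 16 of them listed at 0 in every column and none above 1.7 TPM in any. Compared with DMSO, LPS lowered 22 of the 43 and raised 1, Fabp5, a fatty acid carrier like Fabp4 (log2 difference 1.14, adjusted p = 8.3e-06), where 20.0% of all genes were called lower and 12.7% higher. The median over the 43 was -0.58. The genes named in the rest of this paragraph include all that were called, beyond the rule for named genes, and were chosen after their values were seen. Of 7 receptor partners tested, 3 fell, the retinoid X receptor genes Rxra (-0.92) and Rxrb (-0.61) and the coactivator gene Ncoa2 (-0.70). Rxra, with means of 1.95 TPM in DMSO, 0.564 in LPS and 0.716 in LPS + Ska, passed the filter on low values only through DMSO, so that its fall was favoured by the filter. Of 7 other LXR targets, 4 fell: Smpdl3a (-2.02), a phosphodiesterase gene, the phospholipid transfer protein gene Pltp (-1.80), the lipogenic regulator Srebf1 (-0.90) and fatty acid synthase Fasn (-0.67). Of 11 other PPAR targets, 5 fell, namely the lipase inhibitor Angptl4 (-1.38) and the fatty acid oxidation genes Cpt1a (-1.27), Acadvl (-0.79), Acaa2 (-0.72) and Hadha (-0.61). Of 7 genes of lipid droplet turnover, 3 fell: the triglyceride lipase gene Pnpla2 (-0.66), Plin3 (-0.62) and the triglyceride synthesis gene Dgat1 (-0.61). Of 8 cholesterol trafficking genes, 5 fell: the lysosomal acid lipase gene Lipa (-1.52), the sterol hydroxylase gene Cyp27a1 (-1.21), the lipoprotein receptors Lrp1 (-1.13) and Scarb1 (-0.84), and the cholesteryl ester hydrolase gene Nceh1 (-0.58). Of 3 Mylip substrates and Lpl partners, 2 fell, the lipoprotein receptor Lrp8 (-0.79) and the lipase maturation factor Lmf1 (-0.74). All of these are log2 differences. Of the 23 calls, 15 held in every alternative. Ncoa2, Rxrb, Hadha, Pnpla2, Plin3, Dgat1, Nceh1 and Lrp8 did not: Ncoa2 had an adjusted p of 0.053 to 0.075 without any 1 of the DMSO replicates or without LPS replicate 5 or 7, and under median-ratio scaling Rxrb was at -0.53, Dgat1 at -0.53, Hadha at -0.53, Plin3 at -0.54 and Nceh1 at -0.50. Without LPS replicate 7, Pnpla2 was at -0.57 and Lrp8 at -0.57. Without LPS replicate 6, Hadha was at -0.58 and Nceh1 at -0.51. Without DMSO replicate 7, Plin3 was at -0.57 and Nceh1 at -0.49, and without DMSO replicate 6, Dgat1 was at -0.51.

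Between LPS + Ska and LPS, 5 of the 43 pathway genes were called, 3 higher and 2 lower, with a median of -0.06, where 3.35% of all genes were called higher and 6.14% lower. With so few calls, both counts are near those shares, so they are no result about the lists. Cd36, the scavenger receptor that takes up fatty acids and oxidised lipoprotein, had 108, 115 and 163 TPM in DMSO, 128, 133 and 123 in LPS and 257, 289 and 225 in LPS + Ska. DMSO and LPS overlapped, and all LPS + Ska columns were above both. The log2 difference from LPS was 0.99 (SE 0.14, adjusted p = 0.0014, and 0.0082 on the recovered values). Lipa had 479, 504 and 555 TPM in DMSO, 177, 172 and 183 in LPS and 332, 368 and 296 in LPS + Ska, which thus lay between the other groups (0.90, SE 0.08, adjusted p = 1.5e-04). Smpdl3a lay between them as well, with 19.5, 25.5 and 26.8 TPM in DMSO, 5.12, 5.54 and 4.70 in LPS and 11.3, 12.1 and 10.4 in LPS + Ska (1.00, SE 0.13, adjusted p = 7.2e-04). It was the only one of the 7 other LXR targets tested that was called in this comparison, but 6 of the 7 had an adjusted p below 0.05. Of these, Pltp (0.44) was higher as well, and the genes of fatty acid and phospholipid synthesis Fasn (-0.39), Lpcat3 (-0.37), Scd1 (-0.36) and Scd2 (-0.33) were lower, inside the fold limit, and the median of the 7 was -0.33. On the recovered values the adjusted p of Scd1 was 0.072. Over the alternatives the adjusted p reached 0.12 for Scd1, 0.066 for Scd2 and 0.061 for Lpcat3. Those of Fasn (at most 0.03) and Pltp (at most 0.045) stayed below 0.05. Over all 12819 genes, 1139 were higher and 2524 lower at an adjusted p below 0.05 in this comparison.

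The 2 genes called lower in LPS + Ska than in LPS were Ppard and Lipe. Ppard, the gene of PPARδ, was the main PPAR gene here, Ppara being listed at 0 in every column. It had 14.8, 19.1 and 15.2 TPM in DMSO, 11.4, 9.85 and 12.9 in LPS and 7.09, 8.09 and 6.10 in LPS + Ska, stepping down with no overlap. Its log2 difference between LPS + Ska and LPS was -0.61 (SE 0.14, adjusted p = 0.011), and was -0.52 without LPS replicate 7, without LPS + Ska replicate 7 or under median-ratio scaling, where it was no longer called. Lipe, the hormone-sensitive lipase gene, had 27.5, 26.3 and 26.0 TPM in DMSO, 17.7, 18.5 and 16.8 in LPS and 11.2, 9.19 and 13.2 in LPS + Ska, also stepping down (-0.63, SE 0.11, adjusted p = 0.0042). The Lipe call was lost without LPS + Ska replicate 6, at -0.50, and under median-ratio scaling, at -0.53.

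**Figure D3:**
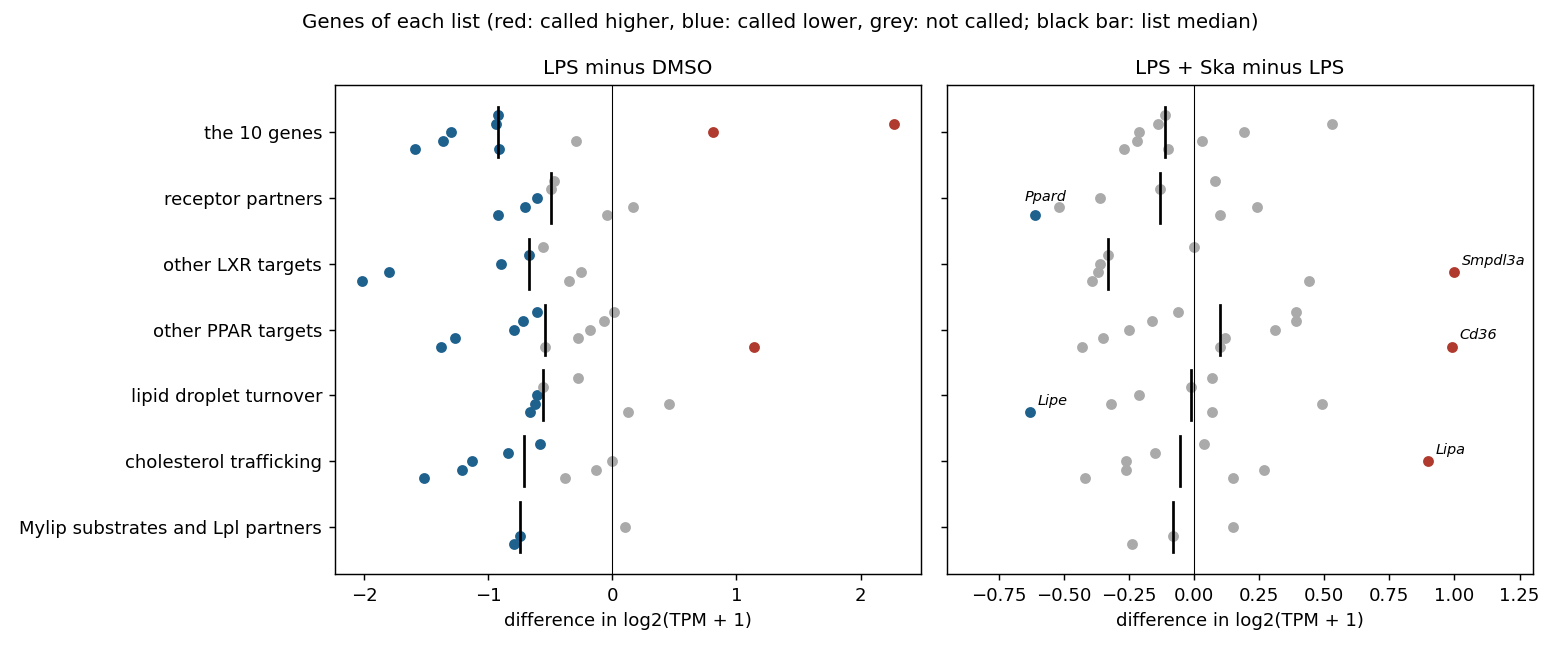
Difference in log2(TPM + 1) of each tested gene (point) of the 10 genes and of the 6 pathway lists, in LPS minus DMSO and in LPS + Ska minus LPS, with red for genes called higher, blue for genes called lower, grey for genes not called and a black bar at the list's median. In LPS minus DMSO every list's median lies below 0, from -0.92 for the 10 genes to -0.49 for the receptor partners, and in LPS + Ska minus LPS the called genes are Ppard and Lipe on the left and Smpdl3a, Cd36 and Lipa on the right.

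Against DMSO, LPS + Ska had 24 of the 43 pathway genes lower and 3 higher (Cd36 at 1.01, Fabp5 at 0.98 and the lipid droplet protein gene Hilpda at 0.96 on the log2 scale), with a median of -0.63 against -0.18 over all genes, of which 25.3% were called lower and 11.4% higher. All 7 of the other LXR targets tested were among the 24, with a median of -0.93. Of the 27 calls, 20 held in every alternative, and Lipa (-0.63) was among the 7 that did not, at -0.57 without DMSO replicate 7, -0.55 without LPS + Ska replicate 7 and -0.44 under median-ratio scaling. Of the other 6, without LPS + Ska replicate 7 the coactivator gene Ncoa1 was at -0.57, Lrp8 at -0.53 and the desaturase gene Scd1 at -0.50. Without LPS + Ska replicate 6 Acaa2 was at -0.56. Without a DMSO column, Ncoa1 was at -0.56 (replicate 5), Dgat1 at -0.53 (replicate 6) and Scd1 at -0.51 (replicate 7). All 7 lost their call under median-ratio scaling, with Scd2, another desaturase gene, at -0.49, Dgat1 at -0.45, Lrp8 at -0.45, Acaa2 at -0.44, Ncoa1 at -0.43 and Scd1 at -0.42.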

How the data were processed

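RNA of 3 groups of 3 RAW264.7 samples was sequenced by the authors, who deposited TPM values for 55401 genes. The submitters' processing notes name fastp 0.20.1, HISAT2 2.2.1, StringTie 2.0 and mm10, with no role given; the annotation is not given in the sources used here. Symbols were matched by Ensembl identifier (55141 of 55401), and coordinates came from GENCODE M21 on GRCm38. The deposited columns were used as they stand.

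The 12819 genes whose TPM averaged 1 or more were fitted together over the 9 columns with limma 3.58.1 (R 4.3.3; lmFit, then eBayes with a trend) on the log2(TPM + 1) scale, which understates the change of low genes. Summaries and plots used Python 3.11.15, pandas 2.3.3 and matplotlib 3.10.9. The fit was tested on simulated data. Alternatives changed the pseudocount (to 0.1), the filter (none, or an average of 5 TPM), the scaling (median ratios, or totals without mitochondrial-genome and ribosomal protein genes), the samples (only the groups compared, or each column left out), the variance trend (left out), the block (replicate number), the tied columns (recovered values (replicate 5 plus and minus 0.5 times its distance to the others) and the call (adjusted p alone).

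The members and lists were chosen with earlier results of these data known, and some genes of the lists are not reported here. Named genes were the members and, from each list, those called between LPS + Ska and LPS and the one with the largest called change after LPS; genes with a pattern like that of a member were to be named only for members called between LPS + Ska and LPS, and there were none. Sequences came from RefSeq promoters of GRCm38.p6.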

Additional observations from a re-analysis of the deposited data

How the results depend on the processing

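In this section the named pathway genes are Ppard, Rxra, Smpdl3a, Angptl4, Cd36, Lipe, Pnpla2, Lipa and Lrp8, which met the rule for named genes. No difference of the 10 genes or of these pathway genes changed sign in a called result under any alternative run. Of 507 values of the members under alternatives, 499 kept their side of the limits, 3 lost a call and 5 gained one. Of 507 values of the named pathway genes, 489 kept theirs, 13 lost a call and 5 gained one. Other pathway genes described above are not in these values. Over all 43 tested pathway genes, 8 of 23 calls of LPS against DMSO were lost in some alternative. So were 2 of 5 calls between LPS + Ska and LPS, and 7 of 27 of LPS + Ska against DMSO. With a mean TPM of at least 5, Abca1 and Fabp4 were not tested, which left 0 members higher against DMSO in LPS and 0 in LPS + Ska. With the adjusted p alone, 2 pathway genes were higher in LPS than in DMSO, and between LPS + Ska and LPS 1 member was higher and 1 lower, and 6 pathway genes were higher and 14 lower. Over all 12819 genes, that setting gave 1139 higher and 2524 lower between LPS + Ska and LPS. Under median-ratio scaling, 1 member (Plin2) was called higher and 0 pathway genes lower between LPS + Ska and LPS. Leaving out 1 column at a time gave 1 to 2 members higher in LPS + Ska than in DMSO, and 1 to 2 pathway genes lower in LPS + Ska than in LPS (Ppard was lost without LPS or LPS + Ska replicate 7). Over all genes, median-ratio scaling gave 603 higher and 539 lower between LPS + Ska and LPS in place of 429 and 787, and 2192 and 2280 in place of 1457 and 3243 against DMSO; the cause was not tested.

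The replicate numbers were not taken as pairing. Deviations of same-numbered columns correlated at 0.384, 0.151 and 0.128 between LPS and LPS + Ska, whose columns are tied in the same form, and at -0.032 to 0.0801 against DMSO. With the replicate block, 2 members were higher and 6 lower in LPS than in DMSO, 427 genes were higher and 771 lower between LPS + Ska and LPS, and no call of a member or named pathway gene changed. The unknown depth and the 2 independent values per LPS group limit every value given.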
